A study of Mus musculus with 12 samples.

Results

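The genes described here are 44 genes of S phase and DNA replication, taken by symbol from a list that runs from origin licensing to DNA ligation, nucleotide supply and cyclin E. All 44 symbols were found among the 12774 rows of the table, and the rule that lists them uses no measured value. Expression was measured by digital gene expression, in which short sequence tags stand for messenger RNAs, in the neural progenitor line C17.2, which comes from mouse. The C17.2a line stably expressed a tagged thyroid hormone receptor alpha and the C17.2b line a tagged thyroid hormone receptor beta. Each line was kept in serum-free medium for 24 h and then either given no hormone or exposed to 1e-07 M of T3, the active form of thyroid hormone, for 6, 12 or 24 h, which gave 12 libraries with 1 library per group. Both lines carry an introduced receptor, no parental line was analysed here, and the labels do not say whether each line is 1 clone.

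DNA replication begins when the origin recognition complex, Cdc6 and Cdt1 load the ring-shaped MCM helicase onto DNA in G1. Cyclin E with its kinase and the GINS complex then take part in turning the loaded helicases into moving forks, where polymerase alpha with primase starts each strand, the clamp loader places the PCNA clamp, and polymerases delta and epsilon copy the template. Many genes of this machinery are textbook targets of the E2F transcription factors, are transcribed mostly around the entry into S phase, and are low in cells that rest after serum is withdrawn.

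Promoter sequences are shown because the E2F site is what much of this group is known to share, and the list itself did not use sequence. A RefSeq table of the assembly GRCm38.p6, holding 250 bases before to 50 bases after a gene's start, had an entry for 35 of the 44 genes. The expression files are based on mm9, so the coordinates below belong to GRCm38.p6 and not to the files. The E2F-type octamers TTTCCCGC, TTTGGCGC, TTTCGCGC and TTTGCCGC were searched on both strands, and overlapping matches were allowed. At least 1 of them lay in the promoters of 13 of the 35 genes (37.1%), against 2.26% of all 32851 promoters and 4.53% of the 9367 measured genes with a promoter. The shorter core TTCCCGC, which lies within the first octamer, was found for 15 of 35 genes (42.9%), against 4.60% of all promoters and 9.55% of the measured genes with a promoter. The CCAAT box, letters CCAAT, was found for 23 of 35 genes (65.7%), against 37.4% of all promoters and 43.6% of the measured genes with a promoter. A match is a description of letters and does not show that a factor binds. The stretches upstream of the start that hold a match are printed below, 5′ to 3′ on the gene's own strand, with capitals marking the matched octamers on either strand.
Mcm6, chr1:128359725-128359835, minus strand: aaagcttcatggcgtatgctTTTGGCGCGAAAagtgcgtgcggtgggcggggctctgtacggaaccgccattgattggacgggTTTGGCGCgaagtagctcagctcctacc
Mcm5, chr8:75109336-75109387, plus strand: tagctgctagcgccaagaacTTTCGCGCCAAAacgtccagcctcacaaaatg
Mcm7, chr5:138172021-138172068, minus strand: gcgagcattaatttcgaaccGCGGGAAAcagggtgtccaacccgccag
Cdc6, chr11:98907993-98908040, plus strand: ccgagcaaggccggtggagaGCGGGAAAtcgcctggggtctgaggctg
Gins3, chr8:95633498-95633545, plus strand: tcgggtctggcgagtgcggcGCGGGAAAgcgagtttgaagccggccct
Rfc3, chr5:151651209-151651238, minus strand: ccggaagtgacgtcgcacgcTTTCGCGCtc
Uhrf1, chr17:56304108-56304155, plus strand: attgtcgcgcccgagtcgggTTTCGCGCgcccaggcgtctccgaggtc
Pola1, chrX:93632266-93632313, minus strand: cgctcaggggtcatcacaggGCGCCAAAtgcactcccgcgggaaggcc

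The run of 12 capitals in Mcm5 and the first run in Mcm6 each hold 2 overlapping octamers, 1 on each strand, so Mcm6 had 3 matches and Mcm5 had 2. The matches began 110, 106 and 47 bases before the start in Mcm6, and 153 and 149 bases before it in Mcm5. In Rfc3 the match began 10 bases before the start. The promoters of Mcm3, Cdt1, Pold1, Pole2 and Lig1 also held a match, downstream of the start. Those of Pcna, Mcm2, Prim1, Rrm2, Ccne1, Slbp and Tyms held none within these letters and this window. Lig1, Uhrf1 and Mcm7 also had promoter entries without a match. A gene was counted as matched where any of its entries held a match.

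The implied depth, read from the size of 1 tag in each column, ran from 7.14e+06 to 1.91e+07 tags, so that 3 tags stood for 0.157 to 0.42 RPM (the deposited unit, tags relative to the library's total). The 24 h libraries stood apart from the others. In them the 100 most abundant genes took 31.1% to 33.4% of the tags, against 38.8% to 42.6% at 6 and 12 h, and median-ratio size factors were 1.16 to 1.34 against 0.869 to 0.971. The C17.2a T3 24 h library had the most genes given as N/A, 875 against 479 to 812 elsewhere. In that library the summed level of the 8 measured neural progenitor markers was 1656 RPM against 5799 RPM in its untreated partner, and that of 7 fibroblast markers was 10536 RPM against 8127 RPM. The progenitor sum ran from 1387 to 3151 RPM over the 6 and 12 h libraries, so 1656 RPM lay within that range. The fibroblast sum was the highest of the 12 libraries. Of the progenitor markers that define the line's label, Nes ranged from 70.2 to 642 RPM, Sox2 from 62.0 to 306 RPM and Vim from 1112 to 4941 RPM over the 12 libraries. Col1a1, a fibroblast collagen, ranged from 747 to 5353 RPM, and of the astrocyte markers Gja1 ranged from 122 to 221 RPM and S100b from 36.1 to 59.3 RPM, while Gfap stayed between 0.60 and 3.92 RPM and Slc1a3 between 0 and 0.41 RPM. The part of cell composition in the results below was not tested, and in these bulk samples more cells in S phase and more RNA per cell cannot be told apart.

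A gene was tested where at least 3 libraries of a fit reached 1 RPM, and 42 of the 44 genes did. Prim2, the large primase subunit, stayed between 0.15 and 1.36 RPM and Chaf1b, a subunit of the histone chaperone CAF-1, between 0 and 1.40 RPM, and neither was tested. The 0 of Chaf1b stood for an entry of N/A in untreated C17.2b cells at 12 h. Differences are given on the log2(RPM + 1) scale with the standard error (SE) of a limma fit, and a call means a Benjamini-Hochberg adjusted p under 0.05 over all genes tested. The spread in these fits is that between pairs of libraries of different lines or times, since no group had a repeat, and it contains any real difference between them.

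**Figure D1:**
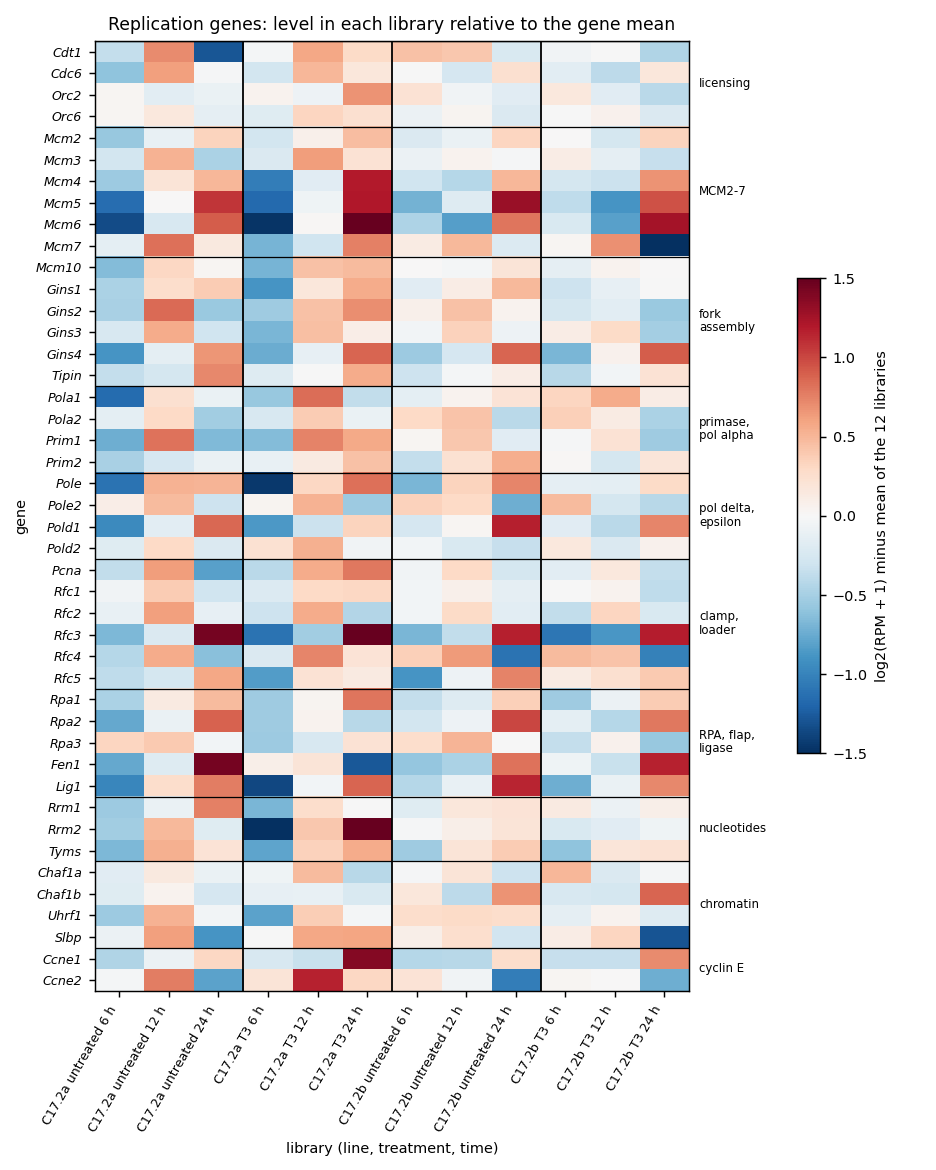
Level of the 44 genes in the 12 libraries. Rows are genes grouped by role, columns are libraries, and colour is log2(RPM + 1) minus the mean of the gene over the 12 libraries, with colours saturated at -1.5 and 1.5. Blue fills most of the 6 h columns of C17.2a and red most of its 12 h columns, while the columns of C17.2b are paler and the 24 h columns mix both colours.

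In both lines together, replication genes were higher at 12 h than at 6 h in untreated cells, with the polymerase epsilon gene Pole, the helicase gene Mcm5, the thymidylate synthase gene Tyms and the primase gene Prim1 at the head. None of the 42 genes was called by limma, and neither was any of the 10192 genes tested (0% called). At an unadjusted p under 0.05, 18 of the 42 were higher at 12 h and none was lower, while 2.83% of all genes tested were higher at that level. The difference was positive for 41 of 42 genes, against 36.6% of all genes, and its median was 0.46, against -0.07 over all genes. Orc2, a subunit of the origin recognition complex, was the 1 negative member at -0.23 (SE 0.17). With median-ratio scaling 20 genes passed the unadjusted level, with library weights 19, and in a fit of all 12 libraries 8. Calls appeared when 1 library was left out. Without the C17.2b untreated 24 h library 8 genes were called by limma, and without the C17.2a untreated 24 h library 7, with Pole at adjusted p values of 2.06e-05 and 0.000261. Both sets held Pole, Prim1, Gins2, Mcm5, Tyms, Mcm7 and Lig1, and Pcna was the eighth. Leaving out either 24 h library left the differences themselves unchanged by construction, 1.33 for Pole, and only the estimate of spread changed. The overlap of the sets is therefore no added support. The share of all genes called with a library left out is not given here, so these counts are not particular to replication genes. Without the C17.2b untreated 6 h or 12 h library 2 were called.

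Among the licensing genes, Cdt1, which brings the MCM ring to the origin, had 79.1, 167 and 41.4 RPM at 6, 12 and 24 h in untreated C17.2a cells. In untreated C17.2b cells it had 138, 135 and 86.8 RPM. Cdt1 thus stood at its highest of the 3 times at 12 h in C17.2a, while in C17.2b it was about level at 6 and 12 h, and in both lines it was lowest at 24 h. Its loading partner Cdc6 had 7.96, 19.7 and 12.4 RPM in C17.2a and 12.5, 10.4 and 15.1 RPM in C17.2b, at the same times and untreated. The 12 h level of Cdc6 was the highest of the series in C17.2a and the lowest of the 3 in C17.2b. The differences between 12 and 6 h were 0.52 (SE 0.27) for Cdt1 and 0.48 (SE 0.31) for Cdc6. Orc6, another origin recognition subunit, stayed within 43.3 to 63.2 RPM over all 12 libraries, and Orc2 within 18.2 to 39.7 RPM.

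All 6 genes of the MCM2-7 ring had a positive difference between 12 and 6 h, and 2 of them had an unadjusted p under 0.05. Mcm5 had 20.5, 46.6 and 98.7 RPM in untreated C17.2a and 27.9, 40.5 and 115 RPM in untreated C17.2b, a difference of 0.83 (SE 0.18) between 12 and 6 h with a limma adjusted p of 0.371. Mcm7 had 73.2, 145 and 90.2 RPM in C17.2a and 89.0, 115 and 70.5 RPM in C17.2b, a difference of 0.67 (SE 0.18). Both subunits were higher at 12 h in each line, and they parted at 24 h, where Mcm5 was at its highest and Mcm7 lay between its 6 and 12 h levels in C17.2a and below its 6 h level in C17.2b. Mcm2 had 17.7, 24.6 and 34.1 RPM in C17.2a and 22.8, 24.9 and 33.6 RPM in C17.2b, and was highest at 24 h in both lines on the RPM scale. Its change from 12 to 24 h was 0.454 in C17.2a and 0.418 in C17.2b, below the all-gene medians of 0.541 and 0.422. Mcm6 had 3.02, 7.64 and 18.1 RPM in C17.2a and 6.39, 4.75 and 16.8 RPM in C17.2b, so that it was higher at 12 h than at 6 h in the first line and lower in the second. Mcm3 and Mcm4 had differences of 0.46 (SE 0.23) and 0.31 (SE 0.20).

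The GINS complex travels with the MCM ring, and 4 of the 6 genes of helicase activation and fork protection had an unadjusted p under 0.05, all 4 of them GINS subunits. Gins2 had 27.7, 71.3 and 26.4 RPM in untreated C17.2a and 41.2, 53.6 and 40.6 RPM in untreated C17.2b, a difference of 0.85 (SE 0.24) between 12 and 6 h. The differences were 0.51 (SE 0.18) for Gins4, 0.59 (SE 0.21) for Gins3 and 0.51 (SE 0.23) for Gins1. Mcm10, which helps to start unwinding, had 0.46 (SE 0.26), and Tipin, a fork protection factor, 0.19 (SE 0.23). Gins2 and Gins3 were highest at 12 h in both lines, while Gins1 and Gins4 went on to higher levels at 24 h on the RPM scale. For Gins1 the change from 12 to 24 h was 0.111 in C17.2a and 0.377 in C17.2b, below the all-gene medians of 0.541 and 0.422.

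Pole, the catalytic subunit of the leading-strand polymerase, had 5.41, 18.9 and 18.8 RPM in untreated C17.2a and 7.59, 16.5 and 22.0 RPM in untreated C17.2b. The 6 h level was the low one in each line, and the 12 and 24 h levels lay close together in C17.2a. Its difference of 1.33 (SE 0.22) between 12 and 6 h had an unadjusted p of 0.00011, rank 2 of the 10192 genes, and a limma adjusted p of 0.367. Prim1, the catalytic primase subunit, had 31.5, 93.5 and 33.0 RPM in C17.2a and 54.2, 70.4 and 46.8 RPM in C17.2b, a difference of 0.96 (SE 0.24), with a peak at 12 h in both lines. Pold1, the catalytic subunit of polymerase delta, had 10.2, 18.4 and 38.3 RPM in C17.2a and 17.3, 21.1 and 47.6 RPM in C17.2b, a difference of 0.53 (SE 0.19). Unlike Prim1, Pold1 was highest at 24 h in both lines. Pola1, the catalytic subunit of polymerase alpha, differed by 0.80 (SE 0.29), its partner Pola2 by 0.29 (SE 0.18), the small epsilon subunit Pole2 by 0.16 (SE 0.26) and the small delta subunit Pold2 by 0.14 (SE 0.24).

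Pcna, the sliding clamp, had 273, 546 and 201 RPM in untreated C17.2a and 339, 433 and 295 RPM in untreated C17.2b, a difference of 0.68 (SE 0.21) between 12 and 6 h. It peaked at 12 h in both lines and was lowest at 24 h. In the clamp loader, Rfc2 differed by 0.53 (SE 0.17), Rfc4 by 0.63 (SE 0.27), Rfc3 by 0.39 (SE 0.19), Rfc5 by 0.46 (SE 0.26) and Rfc1 by 0.28 (SE 0.16), and the first 2 of these had an unadjusted p under 0.05. Lig1, the ligase that seals Okazaki fragments, had 12.8, 31.6 and 45.1 RPM in C17.2a and 19.2, 24.2 and 59.1 RPM in C17.2b, a difference of 0.78 (SE 0.23). Lig1 was higher at each later time in both lines on the RPM scale. The single-strand binding protein subunits differed by 0.39 (SE 0.16) for Rpa1, 0.44 (SE 0.22) for Rpa2 and 0.16 (SE 0.16) for Rpa3, and the flap nuclease Fen1 by 0.33 (SE 0.27).

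For nucleotide supply, Tyms had 6.34, 16.0 and 12.5 RPM in untreated C17.2a and 7.12, 12.4 and 14.2 RPM in untreated C17.2b, a difference of 0.97 (SE 0.22) between 12 and 6 h. Rrm2, the regulated subunit of ribonucleotide reductase, had 39.7, 81.0 and 50.7 RPM in C17.2a and 57.0, 61.1 and 65.8 RPM in C17.2b, a difference of 0.56 (SE 0.21), and its partner Rrm1 differed by 0.40 (SE 0.24). Both Tyms and Rrm2 were low at 6 h in C17.2a, and Rrm2 varied little with time in C17.2b. Uhrf1, which couples maintenance of DNA methylation to replication, had 40.6, 85.5 and 57.9 RPM in C17.2a and 71.4, 72.7 and 71.5 RPM in C17.2b, a difference of 0.54 (SE 0.22). It was level over time in C17.2b and highest at 12 h in C17.2a. Slbp, which binds histone mRNA, had 112, 183 and 64.0 RPM in C17.2a and 127, 142 and 97.3 RPM in C17.2b, a difference of 0.43 (SE 0.21), with its lowest level at 24 h in both lines. Chaf1a, another CAF-1 subunit, differed by 0.26 (SE 0.25) at levels of 0.95 to 2.66 RPM. Of the cyclins E, Ccne1 had 24.6, 32.1 and 42.4 RPM in C17.2a and 25.1, 25.2 and 41.0 RPM in C17.2b. Ccne2 had 20.9, 37.0 and 11.8 RPM in C17.2a and 24.9, 20.6 and 9.90 RPM in C17.2b. On the RPM scale the cyclins E thus ran apart in time, Ccne1 being highest and Ccne2 lowest at 24 h in both lines.

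The early difference was larger in C17.2a than in C17.2b. From 6 to 12 h the median difference of the 42 genes was 0.74 in untreated and 0.81 in T3-treated C17.2a, with 41 and 40 genes higher at 12 h. In C17.2b it was 0.21 untreated and 0.06 with T3, with 33 and 23 genes higher. The medians over all genes in these 4 comparisons of 2 libraries lay between -0.14 and 0.01. In the untreated lines 33 of 42 genes were higher at 12 h in both, against 17.8% of all genes, and 1 was lower in both, against 36.2%.

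The line difference in the change from 6 to 12 h was then tested over both treatments, a fit chosen after these values were seen. None of the 42 genes was called (0% of all genes called), and the limma adjusted p was 0.9996 for each. At an unadjusted p under 0.05, 15 of the 42 genes had a smaller change in C17.2b and none a larger one, and 40 of 42 differences were negative, with a median of -0.66 against 0.07 over all genes. Uhrf1 had the smallest unadjusted p (0.00177), with a difference of -1.01 (SE 0.23). Cdc6 followed with -1.23 (SE 0.29), Mcm6 with -1.76 (SE 0.51), Mcm5 with -1.12 (SE 0.34) and Mcm10 with -0.97 (SE 0.31). The number at the unadjusted level fell to 6 without the C17.2a untreated 12 h library and was 27 without the C17.2a untreated 24 h library. With library weights 27 genes had such a p and 1, Mcm6, was called.

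**Figure D2:**
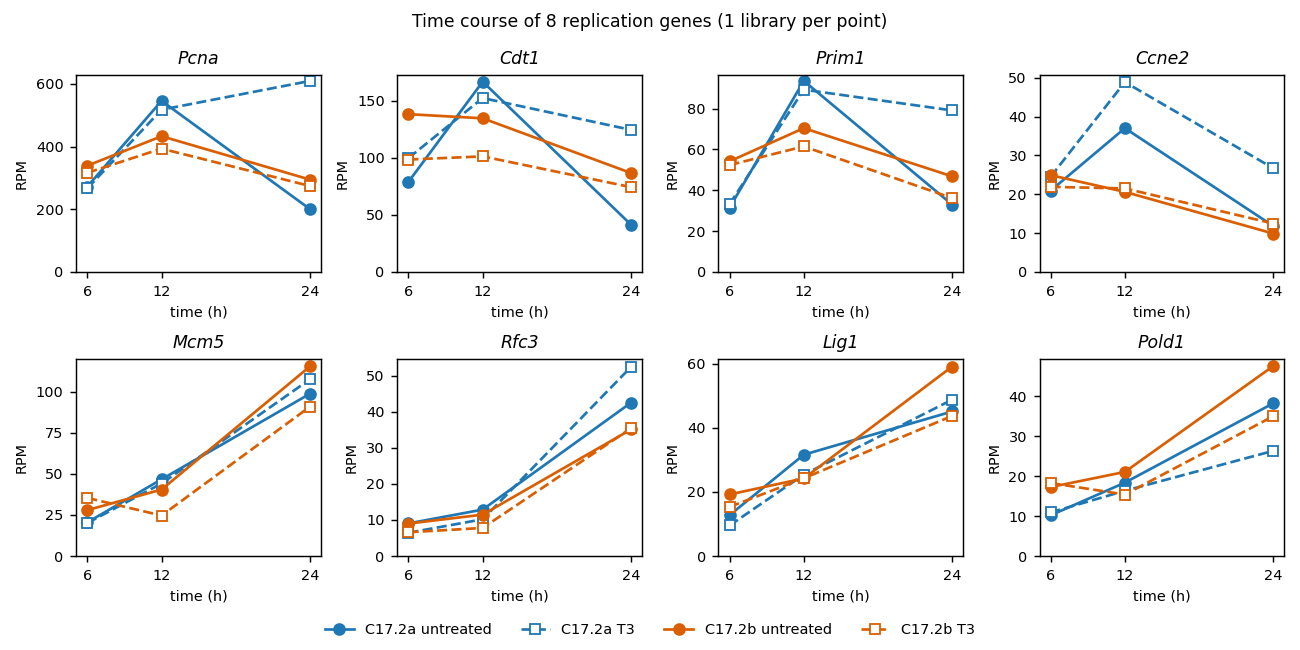
Levels of 8 genes at 6, 12 and 24 h. The horizontal axis is time in h and the vertical axis RPM from 0, blue is C17.2a, orange is C17.2b, filled circles with solid lines are untreated and open squares with dashed lines are T3, with 1 library per point. Untreated Pcna, Prim1, Cdt1 and Ccne2 are lower at 24 h than at 12 h, whereas Mcm5, Rfc3, Lig1 and Pold1 are highest at 24 h, and in the C17.2a T3 24 h library Pcna stands at 609.5 RPM.

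Between 12 and 24 h without T3 the replication genes split into a group that rose and a group that fell, and the split ran through single complexes. In the clamp loader Rfc3 rose and Rfc4 fell, in the MCM ring Mcm5 rose and Mcm7 fell, and of the cyclins E Ccne2 fell. By limma with Benjamini-Hochberg adjustment, 26 of 42 genes were called, against 59.7% of all genes tested. Of these, 12 were higher (47.4% of all genes) and 14 lower (12.3%). Over all genes the median difference was 0.48, so that an average gene appears higher at 24 h on the RPM scale, and the median of the 42 genes was -0.09. With median-ratio scaling, which sets the all-gene median near 0, 24 of 42 genes were called, 3 higher (23.7% of all genes) and 21 lower (27.1%). All 14 lower calls and 3 of the 12 higher calls were called in the same direction under both scalings.

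The 3 genes that rose under both scalings were Rfc3, Mcm5 and Fen1. Rfc3 had 9.05, 12.9 and 42.6 RPM in untreated C17.2a and 9.01, 11.5 and 35.1 RPM in untreated C17.2b at 6, 12 and 24 h, a difference between 24 and 12 h of 1.59 (SE 0.19) with a limma adjusted p of 0.000107, and 1.05 after median-ratio scaling. Mcm5, with the levels given above, differed by 1.28 (SE 0.18) with an adjusted p of 0.00026 in limma, and by 0.72 after that scaling. Each had its highest level at 24 h in both lines. Fen1 had 0.93, 1.87 and 7.86 RPM in C17.2a and 1.20, 1.35 and 4.75 RPM in C17.2b, a difference of 1.46 (SE 0.27) and 1.02 after the scaling, from low levels.

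The other 9 higher calls on the RPM scale were Pold1 (1.08), Gins4 (0.97), Rpa2 (1.03), Mcm6 (1.39), Lig1 (0.88), Rfc5 (0.83), Mcm4 (0.61), Ccne1 (0.54) and Rpa1 (0.44). They were not called after median-ratio scaling, where Ccne1 had -0.02 and Rpa1 -0.12. Gins4 had 16.7, 28.6 and 50.9 RPM in untreated C17.2a and 21.5, 26.4 and 58.9 RPM in untreated C17.2b. Rpa2 had 5.33, 9.06 and 18.8 RPM in C17.2a and 7.86, 9.24 and 20.6 RPM in C17.2b. Both were highest at 24 h in each line, and the 24 h values of the lines lay close together.

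Among the genes that fell, Rfc4 had 12.1, 24.96 and 10.4 RPM in untreated C17.2a and 21.6, 26.4 and 7.19 RPM in untreated C17.2b, a difference between 24 and 12 h of -1.46 (SE 0.27) with a limma adjusted p of 0.00134. Ccne2 fell by 1.28 on the log2 scale, Cdt1 by 1.31, Prim1 by 1.03, Slbp by 1.02 and Pcna by 1.0. Their 24 h level was below their 12 h level in both lines. Pola2, with 17.9, 24.8 and 13.6 RPM in C17.2a and 24.7, 27.2 and 14.8 RPM in C17.2b, fell by 0.83. The other calls in the same direction were Pole2 (-0.91), Gins2 (-0.90), Mcm7 (-0.68), Gins3 (-0.63), Rfc2 (-0.59), Rpa3 (-0.47) and Rfc1 (-0.45). After median-ratio scaling these 14 differences lay further below 0, from -1.98 for Rfc4 to -1.01 for Rfc1. Of the 14, 5 were called under every alternative fit run, namely Ccne2, Cdt1, Pcna, Pola2 and Rfc4, and so were 2 of the 12 higher calls, Mcm5 and Rfc3.

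**Figure D3:**
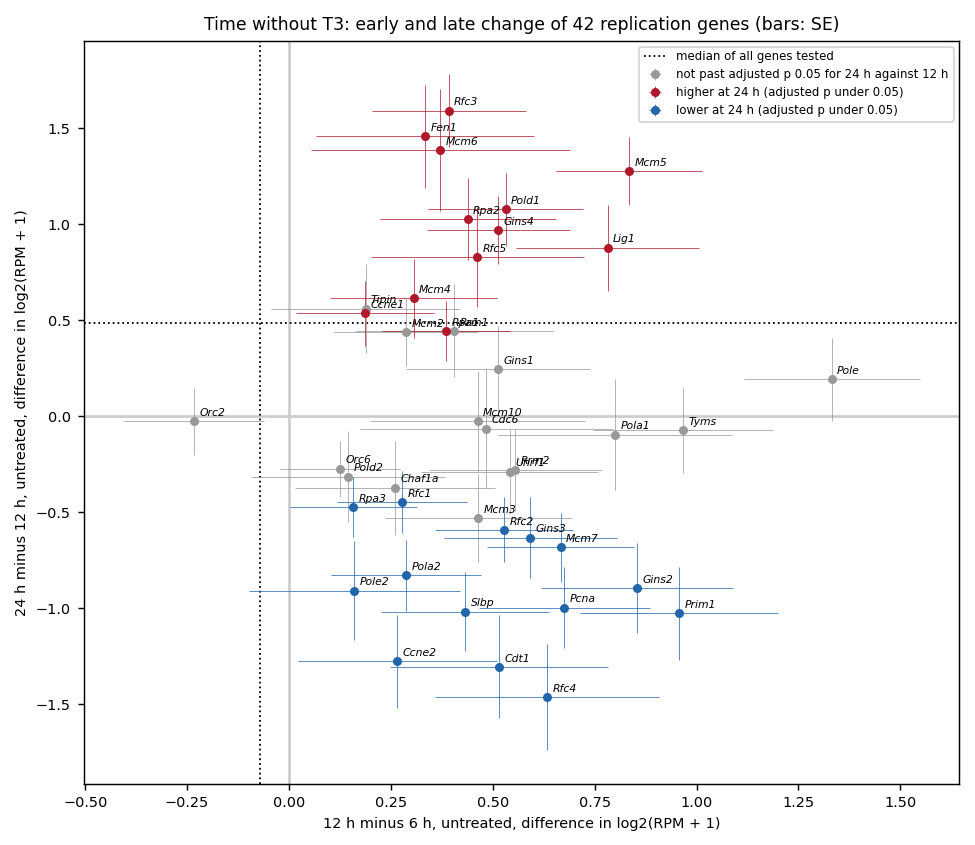
Early and late change of the 42 tested genes without T3. The horizontal axis is the difference in log2(RPM + 1) between 12 and 6 h and the vertical axis that between 24 and 12 h, each point is a gene with bars of 1 SE, colours mark calls for the later interval, and dotted lines give the medians of all genes tested. All genes but Orc2 lie to the right of 0, and they spread vertically from Rfc4 at -1.46 to Rfc3 at 1.59.

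Over the whole interval from 6 to 24 h, 24 of 42 genes were called by limma in untreated cells, against 56.1% of all genes. Of these, 18 were higher (43% of all genes) and 6 lower (13.1%), with a median of 0.35 against 0.40 over all genes. After median-ratio scaling 22 were called, 10 higher (23.9% of all genes) and 12 lower (26.6%). Of the 18 higher calls 10, and of the lower calls all 6, were called in the same direction under both scalings. Higher by the widest margins were Mcm5 with 2.11 (SE 0.18), Rfc3 with 1.98 (SE 0.19), Fen1 with 1.79 (SE 0.27), Mcm6 with 1.76 (SE 0.32), Lig1 with 1.66 (SE 0.23), Pold1 with 1.61 (SE 0.19), Pole with 1.52 (SE 0.22), Gins4 with 1.48 (SE 0.18) and Rpa2 with 1.47 (SE 0.22). These 9 were called under every alternative fit run. The 6 lower genes were Ccne2 (-1.01), Rfc4 (-0.83), Cdt1 (-0.79), Pole2 (-0.75), Slbp (-0.59) and Pola2 (-0.54), and each of these calls was lost under at least 1 alternative. Genes whose 24 h level had returned near the 6 h level included Pcna (-0.32 (SE 0.21)), Prim1 (-0.07 (SE 0.24)), Gins2 (-0.04 (SE 0.24)) and Mcm7 (-0.02 (SE 0.18)), none of which was called.

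The 24 h libraries differ from the others as a set, as described above, and a change of these genes with time and that difference cannot be told apart. The earlier and the later interval share the 12 h libraries, so the differences of a gene over them are not independent. In a fit of all 12 libraries 13 of the 42 genes were called between 24 and 12 h, and the share of all genes called in that fit is not given here.

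Without T3 no line difference among the 42 genes was called by limma with Benjamini-Hochberg adjustment, while 8.85% of all genes were called. At an unadjusted p under 0.05, Pold1 was higher in C17.2b by 0.40 (SE 0.16) and Cdt1 by 0.51 (SE 0.22), with adjusted p values of 0.159 and 0.195. Next came Uhrf1 with 0.29 (SE 0.18), Pola1 with 0.38 (SE 0.23) and Pola2 with 0.23 (SE 0.15). The SE of the line difference ran from 0.12 to 0.26 over the 42 genes, and differences near that size were not detectable here. The line difference depended on the 12 h libraries. Without the C17.2a 12 h library Cdt1 (0.92, limma adjusted p = 0.00447), Prim1 (0.63) and Gins2 (0.58) were called higher in C17.2b. Leaving out the C17.2b 12 h library gave the same differences by construction, since both fits compare the lines at 6 and 24 h only. The second fit therefore adds no support, and the share of all genes called in these fits is not given here. For each of the 3 genes C17.2b was higher at 6 and 24 h and C17.2a at 12 h.

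T3 gave no call among the replication genes in the fit over all 6 pairs of libraries, although 6.45% of all genes tested were called by limma with Benjamini-Hochberg adjustment. At the unadjusted level, 2 of the 42 genes had an unadjusted p under 0.05, both lower with T3. The median difference was 0.02, against -0.01 over all genes, and SEs ran from 0.09 to 0.42. Pold2 was higher with T3 in all 6 pairs, a pattern held by 8.06% of all genes, and no member was lower in all 6, a pattern held by 6.26%.

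Rpa3, the smallest subunit of the single-strand binding protein RPA, had the smallest p. Untreated it had 39.1, 41.1 and 30.2 RPM in C17.2a and 37.5, 44.6 and 30.9 RPM in C17.2b at 6, 12 and 24 h. With T3 it had 21.0, 26.2 and 36.1 RPM in C17.2a and 24.1, 32.5 and 20.6 RPM in C17.2b. The T3 library was the lower one in 5 of the 6 pairs, the exception being C17.2a at 24 h. The difference over 6 pairs was -0.48 (SE 0.15) with a limma adjusted p of 0.104. Without the C17.2a 24 h pair it was -0.63 with an adjusted p of 0.000832 in limma, and with library weights -0.59 with an adjusted p of 0.000578.

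Uhrf1 with T3 had 33.7, 77.4 and 58.1 RPM in C17.2a and 54.2, 61.5 and 51.9 RPM in C17.2b, against the untreated levels given above. It was lower with T3 in 5 pairs and level in the C17.2a 24 h pair, a difference of -0.25 (SE 0.09) with a limma adjusted p of 0.199. Without the C17.2a 24 h pair this was -0.30 (limma adjusted p = 0.0282), and Gins2 (-0.40, adjusted p = 0.0197) was the third gene then called. Next in order of p over all 6 pairs were Pold2 with 0.24 (SE 0.12), Ccne2 with 0.32 (SE 0.16) and Lig1 with -0.22 (SE 0.11). With library weights Pola1 (0.43), Gins2 (-0.39) and Rfc3 (-0.33) were called beside Rpa3 and Uhrf1. These calls, and those without the C17.2a 24 h pair, are not set against the share of all genes called in the same fits. They therefore do not show a response particular to replication genes.

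In C17.2a alone none of the 42 genes was called for T3 by limma, against 1.37% of all genes, and 1 had an unadjusted p under 0.05. That gene was Ccne2, with 24.6, 48.9 and 26.7 RPM with T3 and a difference of 0.57 (SE 0.21), higher with T3 at all 3 times. The next were Rfc4 with 0.41 (SE 0.19), Cdt1 with 0.59 (SE 0.28), Rpa3 with -0.42 (SE 0.21) and Mcm6 with 0.54 (SE 0.30). Without the C17.2a 24 h pair Rpa3 had -0.75 in this line with a limma adjusted p of 0.0128, and with library weights -0.76 with an adjusted p of 0.00462 in limma, both called. In C17.2b none was called either, against 3.11% of all genes, and 2 had an unadjusted p under 0.05, Uhrf1 with -0.36 (SE 0.13) and Rpa3 with -0.54 (SE 0.21). They were followed by Gins2 with -0.51 (SE 0.28), Gins1 with -0.29 (SE 0.19) and Rfc3 with -0.30 (SE 0.20). The median over the 42 genes was 0.10 in C17.2a and -0.10 in C17.2b, with 26 and 12 genes positive, against medians of -0.06 and 0.05 over all genes. When C17.2b was fitted alone, Rpa3, Gins2 and Cdt1 were called lower, with adjusted p values of 0.0150, 0.0207 and 0.0499 in limma. The share of all genes called in that fit is not given here, and the 3.11% above belongs to the fit of both lines.

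The difference of the T3 response between the lines was tested directly, and 0 of 42 genes and 0% of all genes were called by limma. Of the 42, 1 gene, Cdt1, had an unadjusted p under 0.05, with a difference of -0.96 (SE 0.39), lower in C17.2b, and an adjusted p of 0.722 in limma. Gins2 followed with -0.78 (SE 0.40), Slbp with -0.81 (SE 0.45), Prim1 with -0.62 (SE 0.34) and Ccne2 with -0.51 (SE 0.29). The response was lower in C17.2b than in C17.2a for 34 of the 42 genes, and the median of this difference was -0.14, against 0.12 over all genes.

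By time, none of the 42 genes was called for T3 by limma at 6 h (0.161% of all genes called), at 12 h (0.492%) or at 24 h (1.06%). Unadjusted p values under 0.05 numbered 2 at 6 h, 1 at 12 h and 5 at 24 h. At 6 h they belonged to Rpa3 with -0.74 (SE 0.24) and the polymerase alpha gene Pola1 with 0.53 (SE 0.22), and at 12 h to Pola1 with 0.55 (SE 0.22). Pola1 had 3.02, 9.59 and 7.35 RPM untreated and 5.07, 15.0 and 5.96 RPM with T3 in C17.2a, and 7.12, 8.34 and 9.36 and 10.2, 12.2 and 8.69 RPM in C17.2b. It was higher with T3 at 6 and 12 h in both lines and lower with T3 at 24 h in both. At 24 h the 5 genes were Ccne1 with 0.76 (SE 0.22), Mcm6 with 0.97 (SE 0.30), Ccne2 with 0.71 (SE 0.26), Pold1 with -0.48 (SE 0.19) and Rpa2 with -0.76 (SE 0.31). Ccne1 with T3 had 28.6, 26.9 and 89.8 RPM in C17.2a and 26.6, 26.5 and 56.1 RPM in C17.2b, higher than untreated at 24 h in both lines. For the change of the response from 6 to 24 h, limma called 0 of 42 genes and 0% of all genes, and no member had an unadjusted p under 0.05.

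In the C17.2a pair at 24 h many replication genes were higher in the T3 library, and in the C17.2b pair at 24 h most were lower, each on 1 library per group. Single pairs have no repeat and are described here without a test, by the genes past 2-fold once 2 tags had been added to each library, among those whose 2 libraries together held 50 implied tags or more. In the C17.2a 24 h pair 9 of 40 eligible genes were at least 2-fold higher with T3 (6.5% of all eligible genes) and 2 at least 2-fold lower (19.4%). The median log2 ratio of the 40 genes was 0.35, against -0.08 over all eligible genes, and 32 of 40 ratios were above 1.

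The 9 higher genes span licensing, helicase, primase, clamp, nucleotide supply and cyclins E. Rrm2 had 50.7 RPM untreated and 169 RPM with T3 (3.31-fold), Pcna 201 and 609.5 RPM (3.04-fold), and Cdt1 41.4 and 125 RPM (3.0-fold). The next were Mcm6 (2.92-fold), Slbp (2.82-fold), Gins2 (2.42-fold), Prim1 (2.39-fold), Ccne2 (2.24-fold) and Ccne1 (2.12-fold). For Cdt1, Slbp, Gins2, Prim1 and Ccne2 the T3 library at 24 h lay between the C17.2a levels at 6 and 12 h or near that at 12 h, while the untreated library at 24 h was near or below the 6 h level. Pcna, Rrm2, Mcm6 and Ccne1 instead had their highest level of all 12 libraries there, as 13 of the 42 genes did. The lower genes were Rpa2, with 18.8 RPM untreated and 7.04 RPM with T3 (2.61-fold lower), and Fen1. Fen1 had 77 implied tags untreated and 3 with T3, a ratio without added tags of 22.0-fold lower with a 95% exact interval of 7.24 to 109 that covers counting error only.

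In the C17.2b 24 h pair no gene was 2-fold higher (4.97% of all eligible genes) and 2 of 40 were at least 2-fold lower (1.87%). Mcm7 had 70.5 RPM untreated and 24.4 RPM with T3 (2.87-fold lower), and Slbp 97.3 and 48.1 RPM (2.02-fold lower). The median log2 ratio was -0.18, against 0.06 over all eligible genes, and 13 of 40 ratios were above 1. Slbp was therefore higher with T3 in C17.2a and lower in C17.2b at 24 h, and so was Mcm7, with 90.2 RPM untreated and 138 RPM with T3 in C17.2a. This line difference at 24 h has no repeat and was not tested.

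At the earlier times few genes passed 2-fold. At 6 h in C17.2a, Rrm2 was 2.02-fold lower with T3 (1.62% of all eligible genes lower, 2.15% higher), and at 12 h in C17.2a, Mcm7 was 2.19-fold lower (1.18% lower, 2.63% higher). At 6 h in C17.2b, Rfc5 was 2.59-fold higher, from 1.62 to 4.26 RPM (3.46% of all eligible genes higher, 1.75% lower). No member passed 2-fold in C17.2b at 12 h (3.2% of all eligible genes higher, 1.72% lower). Median log2 ratios of the members at 6 and 12 h lay between -0.12 and 0.03.

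**Figure D4:**
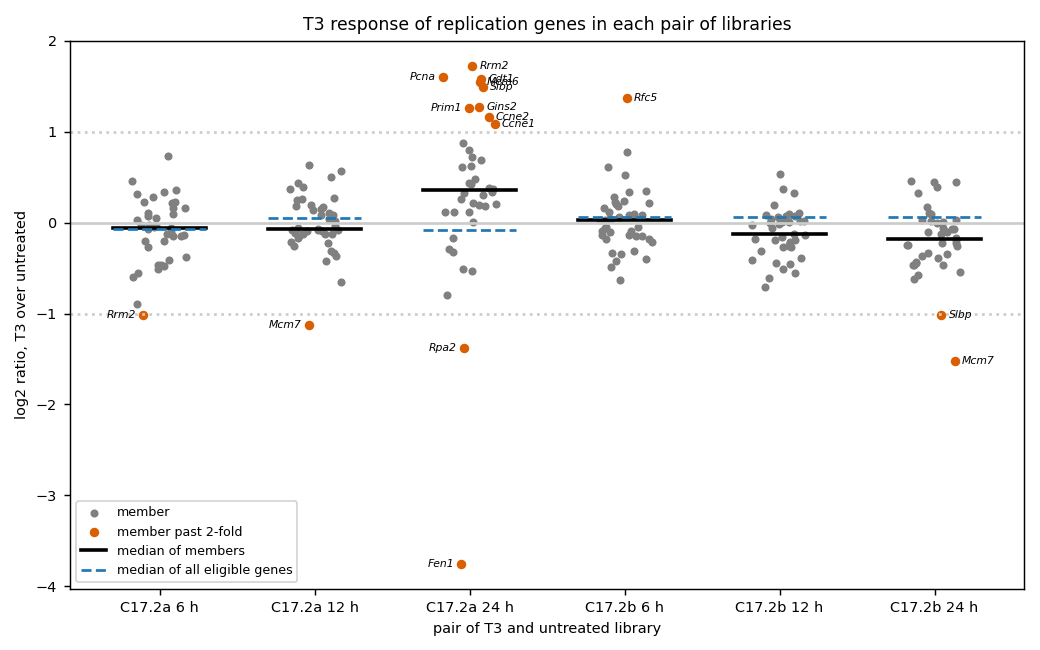
Ratio of T3 to untreated in each pair of libraries. The horizontal axis gives the 6 pairs and the vertical axis the log2 ratio, each point is an eligible replication gene, orange marks ratios past 2-fold, black bars are medians of these genes and dashed blue bars medians of all eligible genes. In the C17.2a 24 h pair the black bar stands at 0.35 with 9 orange points above 1, while in the other 5 pairs it lies between -0.18 and 0.03.

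When the C17.2b 24 h pair was left out, only the C17.2a pair stood for 24 h, with T3 differences from -2.70 for Fen1 to 1.71 for Rrm2. When the C17.2a pair was left out instead, Slbp had -1.0 and Mcm7 -1.49 at 24 h. Calls in these fits take the lone pair to vary as the earlier pairs do, and are not counted here. The C17.2a T3 24 h library had the highest N/A count, and its marker sums differed from those of its untreated partner, as given above. The part of that in these ratios was not tested.

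Other genes of the replication pathway were looked at as lists. Of 31 other replication genes tested, limma called none for T3 over all 6 pairs, 11 higher and 3 lower from 12 to 24 h, and none from 6 to 12 h, where 8 were higher at an unadjusted p under 0.05 (2.83% of all genes). From 12 to 24 h 47.4% of all genes were called higher and 12.3% lower, and after median-ratio scaling 2 of the 31 were called higher (23.7% of all genes) and 9 lower (27.1%). Those with the smallest p at 6 to 12 h were the licensing inhibitor Gmnn with 0.87 (SE 0.25), the checkpoint adaptor Clspn with 0.91 (SE 0.29) and the alternative clamp loader gene Chtf18 with 0.97 (SE 0.34). From 12 to 24 h on the RPM scale they were Ssrp1 with 1.58 (SE 0.15), Mcmbp with 1.67 (SE 0.19) and the maintenance DNA methyltransferase gene Dnmt1 with 0.89 (SE 0.15). Of 12 other nucleotide supply genes, limma called none for T3, and 8 higher and 1 lower from 12 to 24 h, or 3 higher and 2 lower after median-ratio scaling, to be read against the same shares of all genes. From 6 to 12 h, where none was called, Tk1, thymidine kinase, had 1.06 (SE 0.23) and Dck had 0.67 (SE 0.18). The medians of these lists from 6 to 12 h were 0.20 and 0.04, against 0.46 for the 42 genes.

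Of 28 genes of the E2F and Rb families and G1/S control, which act upstream of S phase, limma called 3 for T3 over all 6 pairs (6.45% of all genes were called). Ccnd1, cyclin D1, fell by 1.39 (SE 0.14, adjusted p = 0.000624 in limma). The kinase inhibitor genes Cdkn1a and Cdkn2c rose, by 0.76 (SE 0.17) and 1.45 (SE 0.34), with adjusted p values of 0.0339 and 0.0369 in limma. Between the untreated lines, Ccna2, cyclin A2, was higher in C17.2b by 1.15 (SE 0.26) and E2f1 lower by 0.62 (SE 0.15), both called, and after median-ratio scaling no gene of this list was called lower there. From 6 to 12 h, with no call, Ccna2 had 1.34 (SE 0.32), E2f8 1.05 (SE 0.28) and E2f7 0.89 (SE 0.30).

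Genes of G2 and mitosis give a comparison from a later phase of the cycle. Of 28 tested between the untreated lines, limma called 6, all higher in C17.2b, where 2.93% of all genes were called higher, among them Ccnb1 with 1.35 (SE 0.27), Cenpa with 1.26 (SE 0.25) and Aurka with 0.92 (SE 0.22). All 28 differences were positive, with a median of 0.73, while the replication genes had 25 of 42 positive and a median of 0.07. From 6 to 12 h their median was 1.07, and from 6 to 24 h 21 of 28 were called higher (43% of all genes), or 17 after median-ratio scaling (23.9% of all genes). For T3 over all 6 pairs, limma called 0 of 29, and 0 had an unadjusted p under 0.05. The difference between the lists themselves was not tested.

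Genes with and without an E2F octamer in the promoter window overlapped in their differences. From 6 to 12 h without T3 the 13 genes with a match had a median of 0.53 (range 0.16 to 0.83), and the 21 tested genes with a promoter but no match a median of 0.39 (range -0.23 to 0.97). From 12 to 24 h the medians were -0.10 and -0.27, with both groups holding genes that rose and genes that fell. Mcm5 and Mcm7 each had 2 matches in the window, and without T3 Mcm5 was highest at 24 h while Mcm7 fell between 12 and 24 h. Only 1 of the matches of Mcm7 lay upstream of the start, and another promoter entry of Mcm7 held none. Mcm6, with 3 matches, was also highest at 24 h without T3.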

How the data were processed

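The authors deposited 1 table of gene symbols by library in RPM, a unit read from the values, since the columns sum to between 999930 and 999982. The build is mm9 per the submitters' processing notes, and the aligner and the rule that assigns tags to genes are not given in the sources used here. Between 90.7% and 93.9% of low values were whole multiples of 1 tag (tolerance 0.0055 RPM), so counts could not be recovered for a count test. An N/A was read as 0.

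Values were analysed as log2(RPM + 1) with limma 3.58.1 in R 4.3.3 (lmFit, eBayes with a trend, Benjamini-Hochberg adjustment over all genes tested, threshold 0.05), for genes that reached 1 RPM in 3 or more libraries of the fit (10577 for T3 and 10192 for untreated cells). T3 was tested with the line and time of a pair as a block, and line and time without T3 in the 6 untreated libraries. Floors of 3 tags cover counting error only. The plan allowed a count test or limma, by unit. The fits were tested on simulated data. The genes, lists and tests were chosen with earlier results of these data known. Named were, per fit, the called genes up to 12 by p or otherwise the 5 smallest p, 10 fixed genes, and in single pairs every gene past 2-fold. Alternatives were median-ratio scaling, pseudocounts of 0.5 and 5, no filter or 5 RPM, library weights, all 12 libraries or 1 line alone, and leaving out each pair or library. The labels do not tell whether cultures were separate, so the p-values measure only the spread between these libraries.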

Additional observations from a re-analysis of the deposited data

Results flagged for a closer look

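The T3 response of Orc2 was positive in all 3 C17.2a pairs and negative in all 3 C17.2b pairs, with means of 0.30 and -0.14 on the log2(RPM + 1) scale. The response in C17.2b was lower by -0.43, with a limma adjusted p of 0.722. Such opposite signs were held by 1 of the 42 replication genes and by 2.68% of all genes tested.

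The change from 6 to 12 h was positive in both C17.2a series, untreated and T3, and negative in both C17.2b series for 6 of the 42 replication genes, against 12.5% of all genes tested. As C17.2b minus C17.2a, this difference was -1.23 for Cdc6, with means of 0.99 and -0.24. It was -1.76 for Mcm6, with means of 1.29 and -0.47, and -1.02 for Ccne2, with means of 0.88 and -0.14. For Mcm4 it was -0.90, for Pole2 -0.83 and for Pold2 -0.67. The limma adjusted p was 0.9996 for each of the 6, in the fit that was added after the values were seen.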

How the results depend on the processing

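Counts of called replication genes moved as follows, and the cause was not tested. The share of all genes called is not given beside these counts, so they are not read as particular to replication genes. For T3 over all 6 pairs, where 0 were called, leaving out a pair gave 0 to 3 and library weights gave 5. For T3 in C17.2a the range without a pair was 0 to 1 and library weights gave 1, and in C17.2b the range was 0 to 3, with 3 under library weights and 3 with the line alone. For T3 at 6 h the range was 0 to 1 and library weights gave 1, at 12 h library weights gave 1, and at 24 h the range was 0 to 17. For the change of the response from 6 to 24 h the range was 0 to 15. Without T3 the line difference had 0 to 3 and 12 h against 6 h had 0 to 8 when a library was left out. For 24 h against 12 h the fit of all 12 libraries gave 13 and leaving out a library gave 17 to 26, against 26. The added test of the lines from 6 to 12 h gave 1 with library weights. Of single genes, Ccne1 reversed to -0.018 and Rpa1 to -0.12 with median-ratio scaling between 12 and 24 h. In single pairs a 1.5-fold limit gave 4, 3 and 18 genes in C17.2a at 6, 12 and 24 h and 4 and 2 in C17.2b at 6 and 12 h. At 6 h in C17.2a a minimum of 20 tags gave 2 and median-ratio scaling 0, and at 6 h in C17.2b a minimum of 100 tags gave 0. Over all single genes and alternatives, 1264 values kept direction and side of the threshold, 85 lost a call, 42 gained one and 2 reversed. These totals include the fits that leave 1 pair at 24 h. T3 was tested with each pair as a block, and without the pair block 0 of the 42 genes were called for T3 over all 6 pairs as well. The labels carry no replicate numbers to pair libraries further, and depth limits mainly Fen1, Chaf1a, Pole2, Rfc5, Chaf1b and Prim2, which had few tags.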
